A study of Mus musculus with 10 samples.

Results

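Complexes II to V of the respiratory chain carry out the later steps of oxidative phosphorylation, and their nuclear genes were followed in the bone marrow (BM) of mice that received hematopoietic stem cells (HSCs) from vitamin D-deficient or vitamin D-sufficient fetuses. The members were the genes on the array whose symbol starts with Sdh (complex II), Uqcr (complex III), Cox and a digit (complex IV) or Atp5 (complex V), together with Cyc1 of complex III and Cycs, which encodes cytochrome c. This gave 60 of the 19938 genes with a probe set of their own: 8 for complex II, 9 for complex III, 1 for cytochrome c, 25 for complex IV and 17 for complex V. Each gene was read by the probe set with the highest mean log2 value over the 10 arrays. Cox7c and Cox16 were left out, because each of their 4 probe sets lists another gene symbol too. No filter on low values was applied, and all members but Cox7b2, Cox8b, Cox8c and Cox4i2 had a mean log2 value above the median of all values, 4.76. The subunits encoded by mitochondrial DNA carry other symbols and are not among the members.

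Complex II, succinate dehydrogenase, passes electrons from succinate to ubiquinone. Complex III passes them on to cytochrome c, and complex IV, cytochrome c oxidase, to oxygen. Complexes III and IV pump protons out of the mitochondrial matrix as they do so, and complex V, ATP synthase, uses the return of the protons to make ATP. Each complex is built from subunits of unlike size and role, and several subunits of complexes IV and V exist as paralogs, of which some are made chiefly in muscle, testis or lung.

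The donor cells came from livers of mid-gestation C57BL6 fetuses whose dams were fed a vitamin D-deficient diet, VD(−), or a vitamin D-sufficient one, VD(+), and they were placed in lethally irradiated, vitamin D-sufficient C57BL6 recipients, so that both groups share the irradiation, the transplant and the recipient's own vitamin D status. The study's methods describe donor pools of both sexes, and the sex of each array's mice is not given. RNA of recipient BM was hybridized to 10 whole-transcript arrays, 5 for VD(+) and 5 for VD(−) HSC recipients, and in each group 3 arrays held single samples and 2 held pools. The labels give the mice as 8 weeks old and name both whole BM and BM macrophages as the material. The time between transplantation and collection is given differently in different places. It is not stated if RNA of the single samples also went into the pools, so p-values rest on a spread between arrays that may in part be technical. In RNA of a whole tissue, fewer cells of a type and less RNA per cell cannot be told apart.

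Some arrays stood apart from the rest. A Y-linked signal, read from Kdm5d, Uty and Eif2s3y, averaged 6.64 on the array of VD(−) replicate 1 and 6.80 and 5.31 on those of the VD(−) pools. It was at 2.25 to 2.56 on the other 7 arrays, so no VD(+) array carried one. Xist, the marker of an inactive X chromosome, was at 7.76 on VD(−) replicate 1 and at 8.14 and 9.83 on the VD(−) pools. On the other 7 arrays Xist was at 10.08 to 10.33. Those 7 arrays thus showed no Y-linked signal, although the methods describe donor pools of both sexes. The reason was not tested. The 8 muscle genes examined averaged 6.93 in VD(−) pool 2 and 4.73 to 5.07 in the other 9 arrays. Genes of whole BM were present on every array, with the neutrophil markers at 11.45 to 11.82 and the erythroid markers at 9.50 to 9.74. VD(+) replicate 1 had the lowest mean of the macrophage, monocyte and stroma markers, at 7.01, 7.70 and 6.66. VD(−) pool 1 had the highest mean of the macrophage, B cell, stroma and adipocyte markers, at 7.85, 7.79, 7.46 and 5.77. Its mean of the neutrophil markers was the lowest. A log2 fold change above 0 was found in 5 of 6 stroma, 4 of 6 adipocyte and 0 of 5 megakaryocyte markers. All 11 macrophage markers had a log2 fold change above 0, with mean levels of 7.01 to 7.53 in VD(+) and 7.44 to 7.85 in VD(−) recipients. Of 11 B cell markers 9 had one below 0, with means of 7.18 to 7.57 in VD(+) and 6.81 to 7.79 in VD(−). Among the 11, 4 were lower at a nominal p under 0.05 in limma, where 2.95% of all genes were. Fcer2a had −0.58 (SE 0.081, limma adjusted p = 0.0305). The B cell markers above 0 were Igll1, at 0.54 (SE 0.57), and Vpreb1, at 0.41 (SE 0.60). Of 7 monocyte markers 6 were above 0, and their mean levels did not overlap, at 7.70 to 7.99 in VD(+) and 8.08 to 8.28 in VD(−) recipients. One of them, Cd14, the lipopolysaccharide co-receptor, rose with a log2 difference of 1.70 (SE 0.19) and a limma adjusted p of 0.0109. The other 6 had values of −0.023 to 0.28. The mean over the 7 includes Cd14 and was not computed without it. In only 1 of the 7 did all VD(−) values lie above all VD(+) values, where 1.09% of all genes showed this. The part of these differences in the values of the respiratory genes was not tested. For the Y-linked signal, fits without its arrays and with it in a covariate are given with the results.

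Most members of complexes II to V had slightly higher mean values in VD(−) HSC recipient BM, and no member passed the test after correction. In limma, 49 of the 60 members (81.7%) had a log2 fold change above 0, VD(−) over VD(+), against 50.3% of all 19938 genes. Among the 2173 genes with a mean log2 value above 8 the share was 57.4%, and among the 42 members above that level it was 90.5%. The median log2 fold change was 0.066 for the members and 0.0010 for all genes, a difference of a few percent in level. At a nominal p under 0.05, 6 members were higher in VD(−) recipients, Cox19, Atp5g1, Uqcr11, Sdhaf4, Atp5g2 and Atp5e, where 4.05% of all genes were called in that direction. A single member, Cox6b2, was lower, where 2.95% of all genes were. After Benjamini-Hochberg adjustment over all probe sets 0 members passed an adjusted p of 0.05 in limma, and 0 did in the methods' t-test, against 0.0903% of all genes in limma. By the methods' t-test 10 members were higher at a nominal p under 0.05, where 4.27% of all genes were called in that direction by the same test. The 5 values of VD(−) lay above all 5 of VD(+) in 2 members, Cox19 and Atp5g1, where 1.09% of all genes showed this, and below all 5 in 0 members, where 0.632% did.

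The counts moved with single arrays. VD(+) replicate 1 held the lowest of the 10 values in 31 of the 60 members, and VD(−) pool 1 the highest in 28, whereas VD(−) replicate 3 was the lowest of its own group in 32. Without VD(+) replicate 1, 3 members were higher at a nominal p, against 3.3% of all genes in the same fit, and the median was 0.046. Without VD(−) pool 1, 3 were higher, against 3.42% of all genes, and the median was 0.050. Without VD(−) replicate 3, 10 were higher, against 4.35% of all genes, and the median was 0.10. In that fit of 4 arrays against 5, where a complete separation is easier to reach, 12 members lay above all VD(+) values, against 2.12% of all genes. With the single samples alone Cox19 was the 1 member that was higher at a nominal p, where 1.84% of all genes were. With the pools alone the members higher were Uqcr11 and Cox8b, where 1.9% of all genes were. When the 3 VD(−) arrays with a Y-linked signal were left out, which leaves 2 VD(−) arrays against 5, only Cox19 remained at a nominal p, 38 of 60 members were above 0, and the median was 0.017. In this fit 3.08% of all genes were higher at a nominal p, and 49.1% were above 0. By complex the medians were then 0.0072 for complex II, 0.016 for complex III, 0.0025 for complex IV and 0.081 for complex V, and with a covariate formed by subtracting Xist from the Y-linked signal they were 0.028, 0.012, 0.0076 and 0.075. The medians of complexes II, III and IV were nearer 0 in both fits and that of complex V was not. This difference between complexes has no test, and the 2 fits are not independent. Both rest largely on VD(−) replicates 2 and 3, the VD(−) arrays without the signal. Replicate 3 was the lowest of its group in 32 of the 60 members. The parts of the Y-linked signal and of replicate 3 in these medians were not tested.

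**Figure D1:**
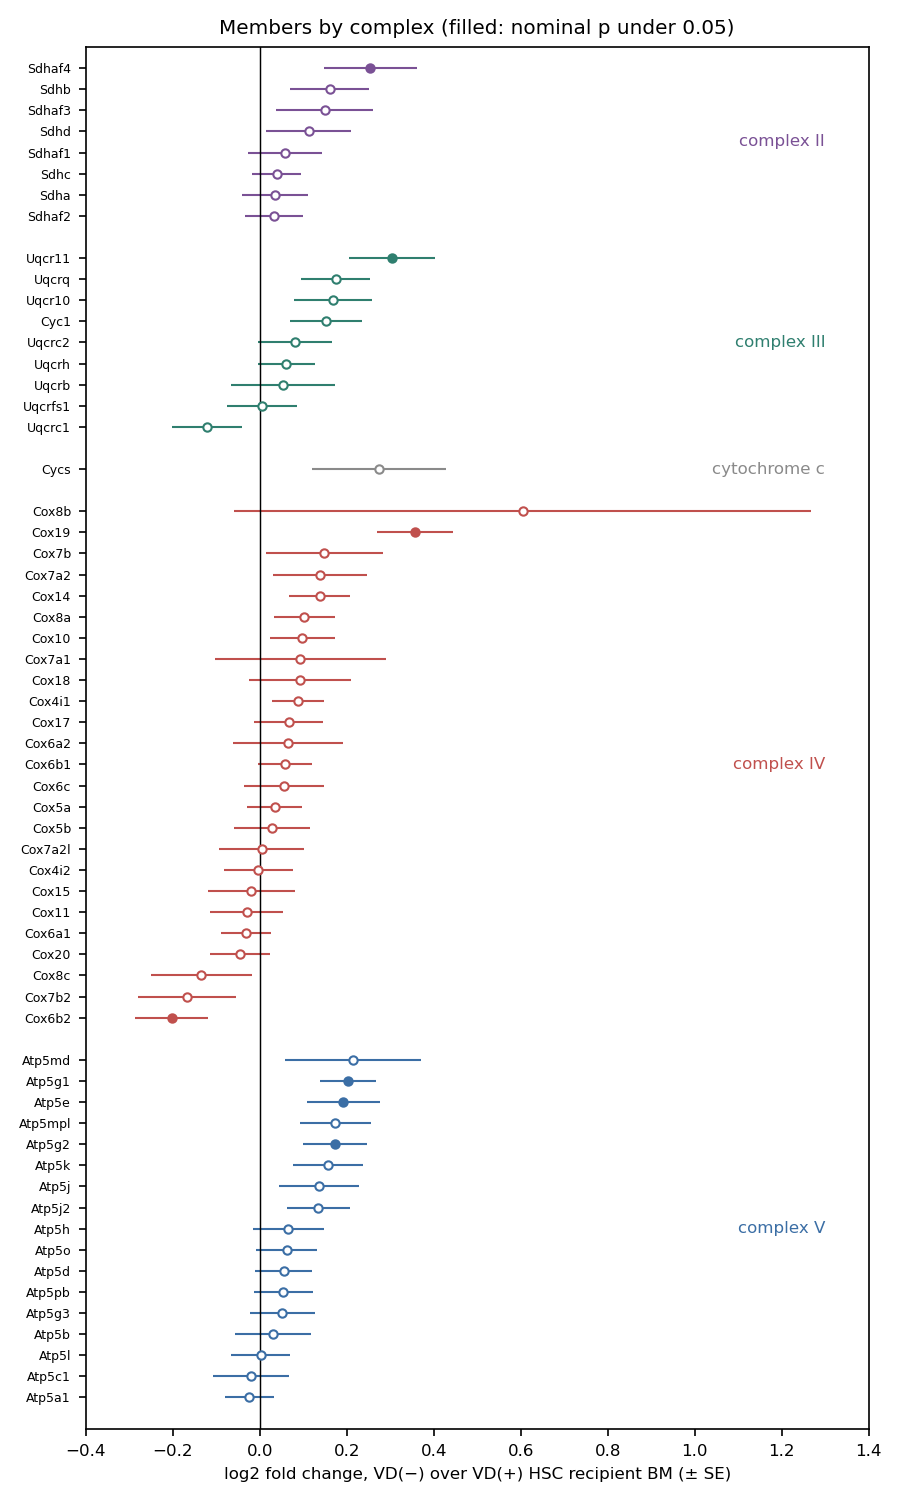
Log2 fold change of each of the 60 members, VD(−) over VD(+) HSC recipient BM, as points with the standard error from limma as bars, grouped by complex (vertical axis, gene symbols). Filled points mark the 7 members at a nominal p under 0.05, and 49 points lie to the right of 0.

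All 8 genes of complex II had a log2 fold change above 0, with a median of 0.086. The assembly factor Sdhaf4, which helps the flavoprotein Sdha to join the iron-sulfur subunit, was the one at a nominal p. Its log2 values in VD(+) were 5.73, 5.90 and 5.86 in the single samples and 6.16 and 5.92 in the pools, and in VD(−) 6.02, 6.11 and 6.03 in the single samples and 6.22 and 6.46 in the pools. VD(+) pool 1 lay within the VD(−) range, and all other VD(+) arrays lay below it. This gave a log2 fold change of 0.25 (SE 0.11), or 19.3%, with a limma nominal p of 0.0364, an adjusted p of 0.675 and an exact permutation p of 0.0476. A dimmer probe set of Sdhaf4 had a log2 fold change of −0.046, and the nominal p of the brighter one passed 0.05 without VD(+) replicate 1, 2, 3 or pool 2 and without either VD(−) pool, with values of 0.18 to 0.32 over the 10 fits that leave out 1 array.

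The subunits of succinate dehydrogenase itself differed by less. The iron-sulfur subunit Sdhb was at 8.51, 8.72, 8.70, 8.66 and 8.68 in VD(+) and at 8.87, 8.90, 8.52, 8.97 and 8.81 in VD(−), so that only VD(−) replicate 3 fell among the VD(+) values. Its log2 fold change was 0.16 (SE 0.091, adjusted p = 0.764 in limma). The flavoprotein Sdha had a log2 fold change of 0.035 (SE 0.076), and the membrane anchors Sdhc and Sdhd had 0.039 and 0.11. Sdhaf2, which attaches the flavin to Sdha, had the lowest value of the complex, 0.034 (SE 0.067).

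In complex III, 8 of 9 genes were above 0 with a median log2 fold change of 0.082, and the 5 small subunits without a redox centre had a median of 0.17. Uqcr11, the smallest subunit of the complex, was the member at a nominal p. It was at 8.76 in VD(+) replicate 1 and at 9.05 to 9.11 in the other VD(+) arrays, and at 9.31, 9.40, 9.07, 9.49 and 9.35 in VD(−). VD(−) replicate 3 thus lay within the VD(+) values and the other 4 VD(−) arrays above them all. The log2 fold change was 0.30 (SE 0.098), or 23.5%, with a nominal p of 0.0107, an adjusted p of 0.547 and an exact permutation p of 0.0317. It kept its nominal call in all 10 fits that leave out 1 array, with values of 0.24 to 0.37, and lost it without the arrays with a Y-linked signal, where the value was 0.21. The dimmer of its probe sets had a log2 fold change of 0.20 (SE 0.12).

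Uqcrq, another small subunit, was the next by p. Its VD(+) values were 8.93 to 9.16 and its VD(−) values 9.03 to 9.38, with a log2 fold change of 0.17 (SE 0.080) and a nominal p of 0.0525. Cyc1, the cytochrome that hands electrons to cytochrome c, had 0.15 (SE 0.083), while the Rieske iron-sulfur protein Uqcrfs1 had 0.0055 (SE 0.080). The large core subunits went opposite ways, with Uqcrc2 at 0.082 (SE 0.085) and Uqcrc1 at −0.12 (SE 0.080, adjusted p = 0.799). Uqcrc1 was the lowest value of the complex, and VD(+) replicate 1 was its highest array, at 8.02 against 7.59 to 7.76 in the other 9.

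Cycs encodes cytochrome c, the soluble carrier between complexes III and IV. It was at 8.75, 9.60, 9.09, 9.48 and 9.13 in VD(+) and at 9.46, 9.73, 9.36, 9.56 and 9.33 in VD(−). The groups overlapped, and the VD(+) values were spread more widely than those of VD(−). Cycs had a log2 fold change of 0.27 (SE 0.15), with a nominal p of 0.102, an adjusted p of 0.760 and an exact permutation p of 0.143. A second, dimmer probe set gave 0.29 (SE 0.13), on the other side of the nominal threshold, and the third, the dimmest, gave 0.15 (SE 0.17).

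**Figure D2:**
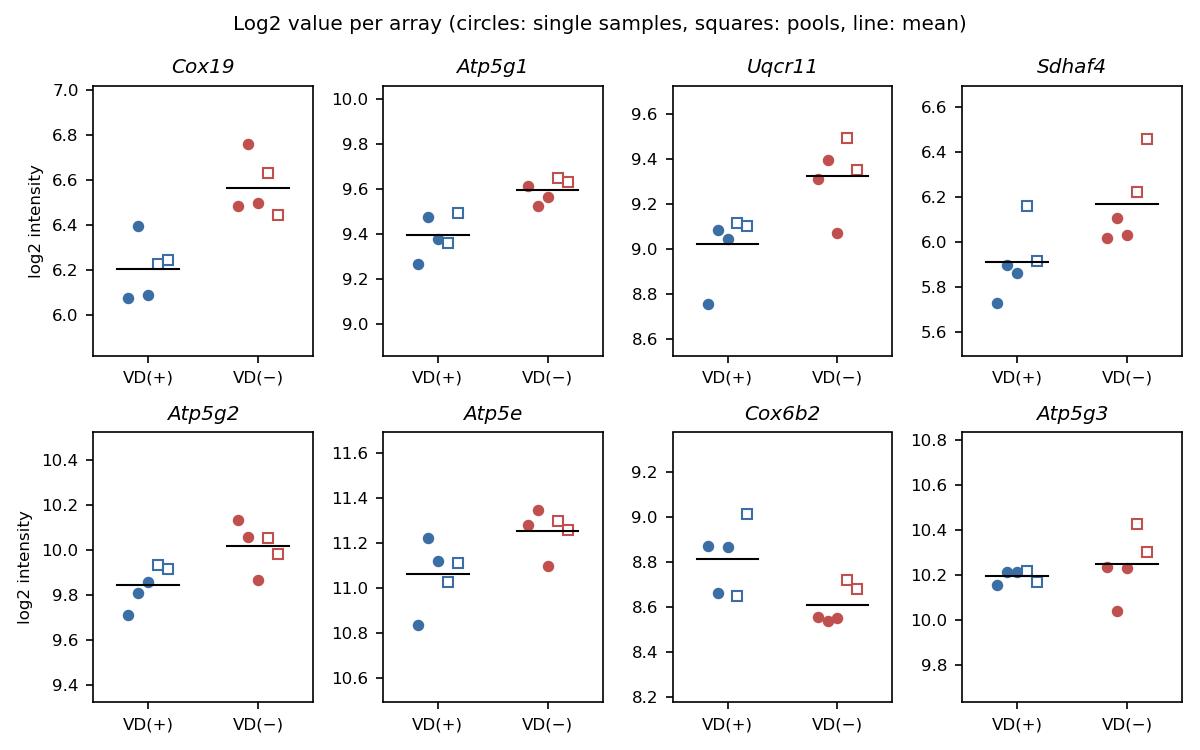
Log2 intensity of 8 members on each array, with VD(+) arrays in blue, VD(−) arrays in red, circles for single samples, squares for pools and a line at the group mean. Each vertical axis spans the same number of log2 units, and the groups are apart in Cox19 and Atp5g1 only.

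Complex IV had the most members and the widest range. Of its 25 genes 17 were above 0, with a median log2 fold change of 0.059, 1 was higher and 1 lower at a nominal p. The one that was higher is Cox19, a small protein of the space between the mitochondrial membranes that takes part in bringing copper to cytochrome c oxidase. It had values of 6.08, 6.39 and 6.09 in the single samples and 6.22 and 6.25 in the pools of VD(+), and of 6.48, 6.76 and 6.50 in the single samples and 6.63 and 6.45 in the pools of VD(−). Every VD(−) array was above every VD(+) array. The log2 fold change was 0.36 (SE 0.087, 95% interval 0.16 to 0.55), or 28.1%, with a nominal p of 0.00192 and an adjusted p of 0.315 in limma. Its exact permutation p of 0.00794 is the smallest that 5 arrays against 5 can give. It kept its nominal call in all 10 fits that leave out 1 array, with values of 0.31 to 0.41, and without the arrays with a Y-linked signal, where the value was 0.42. Of the other copper proteins, Cox17 had 0.067 (SE 0.079) and Cox11 −0.029 (SE 0.084).

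The 9 subunits of complex IV that all tissues use had log2 fold changes between −0.032 and 0.15, 8 of them above 0, and none reached a nominal p under 0.05. Cox4i1, Cox7a2 and Cox8a, each the common form of a subunit that has other isoforms, had 0.088 (SE 0.059), 0.14 (SE 0.11) and 0.10 (SE 0.070). For Cox4i1 the exact permutation p was 0.0317. Of its VD(−) arrays 4, at 10.34 to 10.50, were above all VD(+) arrays, at 10.29 to 10.32. Cox6a1, the common form of subunit 6A, had −0.032 (SE 0.058). Cox7a2l, a factor linked to supercomplexes of complexes III and IV, had 0.0045 (SE 0.097), with −0.020 from its other probe set. Its activity in the strain used was not examined. The enzymes of heme a synthesis, Cox10 and Cox15, had 0.098 and −0.019, and the assembly factors Cox14, Cox18 and Cox20 had 0.14, 0.092 and −0.045.

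Among the 7 isoforms of complex IV known from particular tissues, 3 were above 0 and 4 below, with a median of −0.0027. Cox6b2, the form of subunit 6B known from testis, was the member lower at a nominal p. Its values were 8.87, 8.66, 8.87, 8.65 and 9.01 in VD(+) and 8.56, 8.54, 8.55, 8.72 and 8.68 in VD(−). The single samples of VD(−) lay below every VD(+) array, and both VD(−) pools lay among the VD(+) values. For Cox6b2 the difference on the log2 scale was −0.20 (SE 0.085), with an adjusted p of 0.677 in limma and an exact permutation p of 0.0476, and the nominal p passed 0.05 without VD(+) replicate 1, 3 or pool 2 or without any 1 of the 3 single VD(−) samples, with values of −0.24 to −0.15. Cox7b2 and Cox8c, also known from testis, had −0.17 (SE 0.11) and −0.13 (SE 0.12) at levels below the array median of 4.76. Cox4i2, the lung form of subunit 4, had −0.0027 (SE 0.080).

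Cox8b, the form of subunit 8 known from heart, skeletal muscle and brown fat, had the largest log2 fold change of any member and also the largest error, 0.60 (SE 0.66, adjusted p = 0.881 in limma). It was at 6.87 in VD(−) pool 2 and at 5.95 in VD(+) replicate 3, and between 3.18 and 4.80 in the other 8 arrays. Muscle genes were also high in VD(−) pool 2. Tnnt3, a fast skeletal muscle troponin, was at 9.43 there and at 5.36 to 6.06 in the other 9 arrays, and Atp2a1, the calcium pump of fast muscle, at 6.77 against 4.06 to 4.45. In that pool 7 of the 8 muscle genes had their highest value of the 10 arrays. VD(+) replicate 3 was not uniform, with 4 of the 8 at their highest among the VD(+) arrays, such as Mb, which encodes myoglobin, at 5.63, and 2 at their lowest, such as the myosin gene Myh4 at 3.10, and a mean over the 8 of 5.07. The brown fat genes Ucp1 and Cidea stayed between 2.32 and 3.09 on all arrays. Without VD(−) pool 2 the log2 fold change of Cox8b was 0.052, and without VD(+) replicate 3 it was 1.08. Cox7a1 and Cox6a2, the muscle forms of subunits 7A and 6A, had 0.094 (SE 0.20) and 0.066 (SE 0.13). Their highest array was also VD(−) pool 2, at 5.75 and 6.82. The next was VD(−) replicate 2 for Cox7a1, at 5.52, and VD(+) replicate 3 for Cox6a2, nearly level at 6.81. The part of muscle RNA in these values was not tested.

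**Figure D3:**
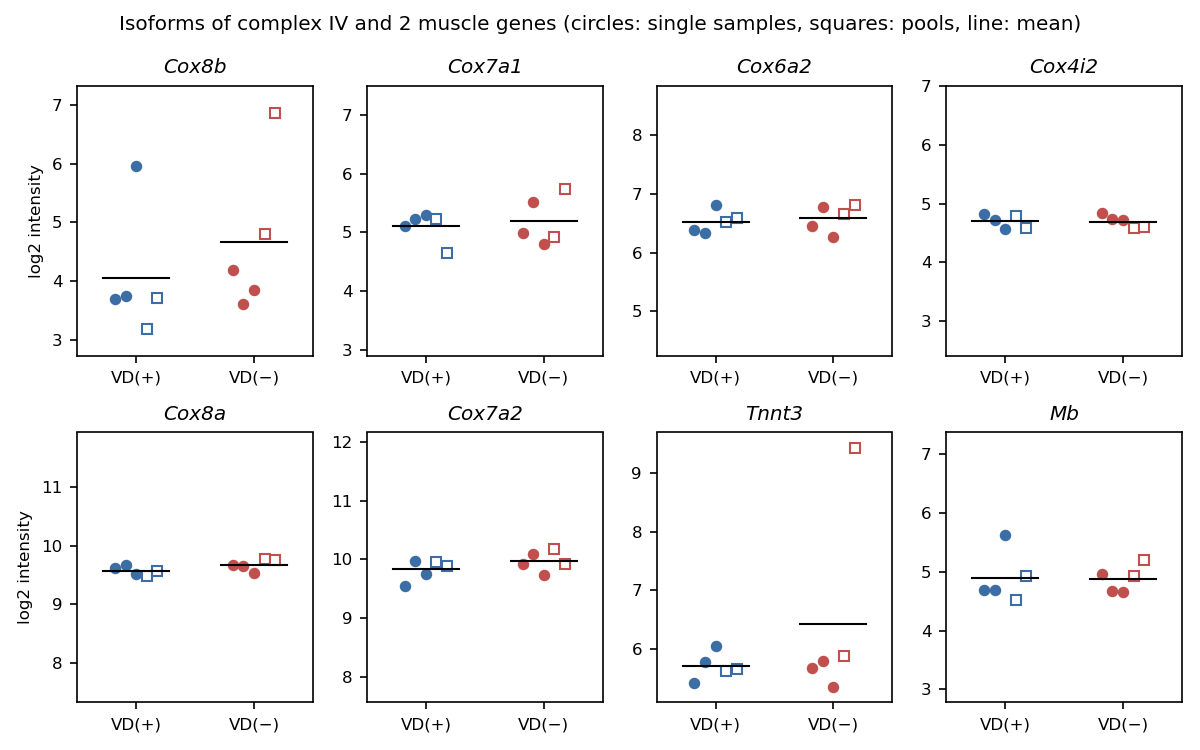
Log2 intensity of tissue-restricted isoforms (Cox8b, Cox7a1, Cox6a2, Cox4i2), of the common isoforms Cox8a and Cox7a2, and of the muscle genes Tnnt3 and Mb, on each array (VD(+) blue, VD(−) red, circles single samples, squares pools, line group mean). The square at 6.87 for Cox8b and that at 9.43 for Tnnt3 are the same array, VD(−) pool 2.

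In complex V, 15 of 17 genes were above 0, with a median log2 fold change of 0.066, and 3 were higher at a nominal p. The differences are given by the subunit's place in the enzyme. The 3 genes of the c ring, the rotor in the membrane that the protons turn, had a median of 0.17. The 5 accessory subunits in the membrane had 0.16 and the 4 of the peripheral stalk 0.064. The 5 of the F1 part, which is the head where ATP is made together with its central stalk, had 0.031. No test was run between these classes, which hold 3 to 5 genes each.

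The c ring is made of a single protein that is encoded by 3 genes, whose products differ in the targeting peptide that is removed on import into mitochondria. Atp5g1, now named Atp5mc1, was at 9.27, 9.47 and 9.38 in the single samples and 9.36 and 9.49 in the pools of VD(+), and at 9.61, 9.53 and 9.57 in the single samples and 9.65 and 9.63 in the pools of VD(−). All VD(−) arrays were above all VD(+) arrays. The log2 fold change was 0.20 (SE 0.065), or 15.1%, with a nominal p of 0.00994, an adjusted p of 0.542 and the smallest exact permutation p of 0.00794. Its other probe set gave 0.18 (SE 0.066). It too kept its nominal call in all 10 fits that leave out 1 array, with values of 0.17 to 0.23, but not without the arrays with a Y-linked signal, where the value was 0.15.

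Atp5g2, now Atp5mc2, was at 9.71, 9.81, 9.86, 9.93 and 9.92 in VD(+) and at 10.13, 10.06, 9.87, 10.06 and 9.98 in VD(−). Its groups met only at VD(−) replicate 3, which lay below both VD(+) pools. The log2 fold change was 0.17 (SE 0.073), or 12.8%, with an adjusted p of 0.678 and an exact permutation p of 0.0317, and its other probe sets gave 0.19 and 0.16. The nominal p passed 0.05 without any 1 of the single VD(+) samples, without VD(−) replicate 1 or 2, or without VD(−) pool 1, with values of 0.14 to 0.21. Atp5g3, now Atp5mc3, was at 10.16 to 10.22 in VD(+) and at 10.23, 10.04, 10.23, 10.43 and 10.30 in VD(−). Its log2 fold change was 0.052 (SE 0.075, 95% interval −0.11 to 0.22), an interval that holds the values of the other c ring genes.

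The promoters of the c ring genes are shown here because these genes code for the same mature protein. Each is the RefSeq window of GRCm38.p6 from 250 bases before to 50 bases after the gene's start, on the minus strand and read 5′ to 3′ along the gene, at chr11:96075582-96075881 for Atp5g1, chr15:102670998-102671297 for Atp5g2 and chr2:73911277-73911576 for Atp5g3. Capitals mark matches, on either strand, to the motifs of NRF1 (GCGCANGCG), of ETS factors such as GABPA (CCGGAAG), of estrogen-related receptors (TCAAGGTCA), of NF-Y (CCAAT) and of the TATA box (TATAAA).
Atp5g1: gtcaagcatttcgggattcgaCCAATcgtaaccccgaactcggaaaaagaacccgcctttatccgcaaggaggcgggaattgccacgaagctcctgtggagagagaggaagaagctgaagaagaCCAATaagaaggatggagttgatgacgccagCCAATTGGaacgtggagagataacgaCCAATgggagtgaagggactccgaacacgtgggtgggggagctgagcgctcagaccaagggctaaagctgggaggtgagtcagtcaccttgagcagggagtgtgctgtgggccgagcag
Atp5g2: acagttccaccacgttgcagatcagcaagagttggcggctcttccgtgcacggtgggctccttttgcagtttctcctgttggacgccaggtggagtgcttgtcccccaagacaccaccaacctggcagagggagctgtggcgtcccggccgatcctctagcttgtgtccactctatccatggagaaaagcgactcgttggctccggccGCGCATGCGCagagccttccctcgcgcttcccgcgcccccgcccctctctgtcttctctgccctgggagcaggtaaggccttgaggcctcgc
Atp5g3: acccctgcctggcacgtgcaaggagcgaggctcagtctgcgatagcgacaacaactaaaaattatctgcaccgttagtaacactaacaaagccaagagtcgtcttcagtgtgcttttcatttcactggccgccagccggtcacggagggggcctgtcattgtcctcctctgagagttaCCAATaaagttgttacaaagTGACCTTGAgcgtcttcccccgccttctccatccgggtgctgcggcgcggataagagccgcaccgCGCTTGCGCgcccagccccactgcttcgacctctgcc
The Atp5g1 window held 5 CCAAT matches, of which 1 was on the reverse strand and overlapped another, and none of the other motifs. The Atp5g2 window held the NRF1 motif on both strands, at overlapping positions that start 42 and 41 bases before the gene's start. The Atp5g3 window held 1 match each for NRF1, the estrogen-related receptors and NF-Y.

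A window of this kind was at hand for 46 of the 60 members and for 27025 genes in all, with no entry for Sdhc, Uqcrq, Cyc1, Uqcrc2, Uqcrb, Cox4i1, Cox8c, Cox17, Cox18, Cox6c, Cox6a2, Cox4i2, Atp5mpl and Atp5a1. The NRF1 motif stood in a window of 15 of the 46 members (32.6%) and of 7.03% of all genes, and the ETS motif in 20 members (43.5%) and 9.93% of all genes. The estrogen-related receptor motif was found in 2 members, Sdhd and Atp5g3, or 4.35% against 0.466%. CCAAT was found in 23 members (50%) and 41.1% of all genes, and the TATA box in 6 members (13%) and 15.7%. Windows of the members had a median GC content of 58.7%, against 52.7% for all windows, and the shares were not corrected for it. The members with the ETS motif had a median log2 fold change of 0.10 and those without it 0.054, and for the NRF1 motif the medians were 0.066 and 0.061, with no test.

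Of the members higher at a nominal p, Uqcr11 was the one whose window held both the NRF1 and the ETS motif, and the window of Cox19, which had the smallest p, held none of the 5 motifs. Both are given for this contrast, for Uqcr11 at chr10:80406772-80407071 and for Cox19 at chr5:139345117-139345416, both on the minus strand of GRCm38.p6 and from 250 bases before to 50 after the start, with capitals for the motifs as above.
Uqcr11: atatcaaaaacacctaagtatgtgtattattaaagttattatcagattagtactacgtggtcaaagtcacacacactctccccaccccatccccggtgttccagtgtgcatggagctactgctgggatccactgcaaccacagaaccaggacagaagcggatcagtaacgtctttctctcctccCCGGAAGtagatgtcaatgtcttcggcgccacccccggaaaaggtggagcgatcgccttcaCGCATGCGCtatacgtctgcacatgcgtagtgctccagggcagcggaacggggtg
Cox19: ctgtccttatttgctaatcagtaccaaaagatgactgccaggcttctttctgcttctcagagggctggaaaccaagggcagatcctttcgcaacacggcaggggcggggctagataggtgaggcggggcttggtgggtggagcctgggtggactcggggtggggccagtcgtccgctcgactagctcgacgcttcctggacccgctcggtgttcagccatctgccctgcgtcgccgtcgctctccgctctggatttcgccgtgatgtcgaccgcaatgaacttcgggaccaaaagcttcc
In Uqcr11 the ETS match started 66 bases and the NRF1 match, on the reverse strand, 5 bases before the gene's start. That a motif is absent says only that these letters are not in this window.

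Atp5e, the epsilon subunit of the central stalk below the F1 head, was the last of the members of complex V at a nominal p. It was at 10.84, 11.22, 11.12, 11.03 and 11.11 in VD(+) and at 11.28, 11.35, 11.10, 11.30 and 11.26 in VD(−). VD(−) replicate 3 lay among the VD(+) values and the other VD(−) arrays above them. Atp5e had a log2 fold change of 0.19 (SE 0.084), or 14.3%, with an adjusted p of 0.686 and an exact permutation p of 0.0317, and the nominal p passed 0.05 when VD(+) replicate 1 or either VD(+) pool, or any VD(−) array but replicate 3, was left out, with values of 0.14 to 0.23. The other genes of the F1 part were near 0. Atp5a1 had −0.024 (SE 0.056), with a 95% interval of −0.15 to 0.10, Atp5b, the subunit that holds the catalytic site, 0.031 (SE 0.087), Atp5c1, the turning gamma subunit, −0.019 (SE 0.088), and Atp5d 0.055 (SE 0.064).

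The accessory subunits in the membrane, which take part in pairing the enzyme into dimers, had 4 log2 fold changes between 0.13 and 0.21 and 1 at 0.0025. Atp5mpl had 0.17 (SE 0.082, exact permutation p = 0.0476), Atp5k 0.16 (SE 0.080) and Atp5j2 0.13 (SE 0.073). Atp5md had 0.21 (SE 0.16), the highest in complex V, and was at 9.44 in VD(+) replicate 1 against 10.01 to 10.16 in the other VD(+) arrays. Atp5l was read by 6 probe sets, which gave values from 0.0023 to 0.016. Of the peripheral stalk, Atp5pb had 0.054 (SE 0.068) from its brighter probe set and 0.20 (SE 0.086) from the dimmer one. RefSeq lists pseudogenes named after Atp5k, Atp5l, Atp5pb, Atp5c1, Cycs, Uqcrh and Cox5b, so their probe sets may read related sequences. Pseudogenes under other names were not searched for. In all, 14 members had several probe sets, among them Atp5g1, Atp5g2 and Uqcr11, and these too may read related sequences. Agreement between the probe sets of a gene is therefore no independent support. Atp5e, Atp5pb, Atp5g1, Atp5g2, Atp5j2 and Atp5k belong to a network that was drawn from these same arrays, so their direction is not independent evidence. All 6 were above 0, and 3 of them were at a nominal p.

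The same arrays were high or low in several complexes. The mean log2 value of all 60 members was 8.63, 8.81 and 8.79 in the single samples and 8.77 and 8.77 in the pools of VD(+), and 8.84, 8.85 and 8.72 in the single samples and 8.91 and 8.88 in the pools of VD(−). VD(−) replicate 3 was lower than 4 of the VD(+) arrays, and the other VD(−) arrays lay above every VD(+) array. Complex V averaged 10.09 to 10.32 in VD(+) and 10.25 to 10.44 in VD(−), and complex II 7.37 to 7.57 and 7.50 to 7.70. VD(+) replicate 1 was lowest for complexes II, III and V, and VD(−) pool 1 was highest for complexes III and V. VD(−) pool 2, the array with the muscle genes, was highest for complexes II and IV. In complex II it was nearly level with VD(−) pool 1, at 7.70 against 7.69, and in complex IV it was at 8.16 against 8.09. The 7 tissue-restricted isoforms within complex IV averaged 5.56 in VD(−) pool 2 and 4.87 to 5.40 in the other arrays. Their part in the mean of complex IV was not tested. The 34 subunits of complex I, the NADH dehydrogenase, had a median log2 fold change of 0.11, and their means followed the same arrays. Of these subunits 31 were above 0 and 2 higher at a nominal p, where 50.3% and 4.05% of all genes were.

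**Figure D4:**
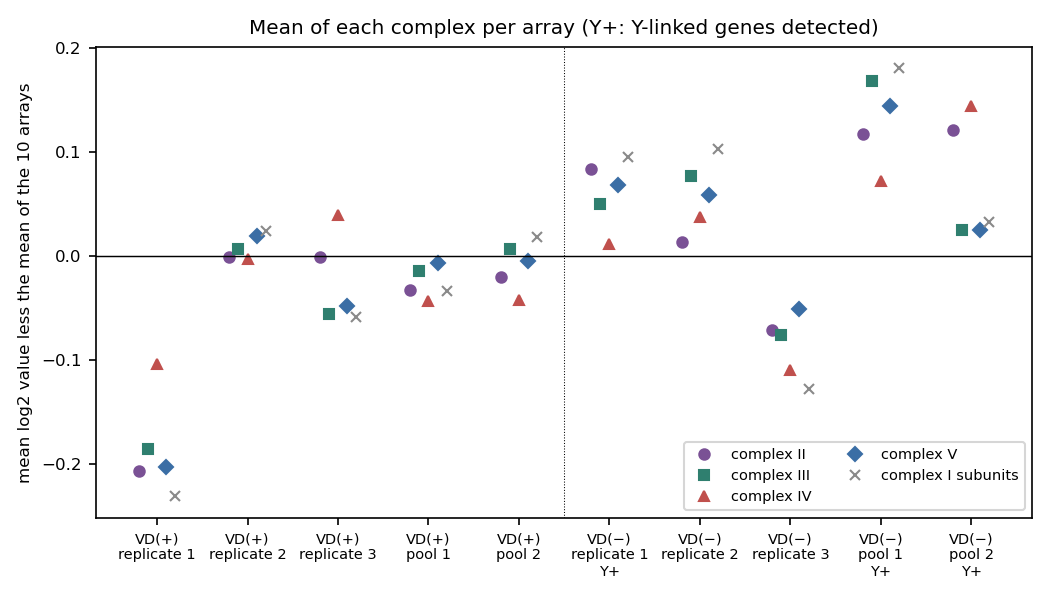
Mean log2 value of each complex on each array, less its mean over the 10 arrays (vertical axis), for complexes II, III, IV and V and for the subunits of complex I. VD(+) arrays are left of the dotted line, VD(−) arrays right of it, and Y+ marks the 3 arrays with a Y-linked signal. VD(+) replicate 1 and VD(−) replicate 3 lie below 0 for all of them, from −0.23 to −0.051.

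Genes that work with these complexes under other names also differed by little between the groups. Of 59 measured, 46 were above 0, where 50.3% of all genes were, with a median log2 fold change of 0.068. At a nominal p 1 was higher and 0 lower, where 4.05% and 2.95% of all genes were. The one higher was Coa4, a partner in the assembly of complex IV, at 0.22 (SE 0.078, limma nominal p = 0.0182, adjusted p = 0.606, exact permutation p = 0.0159). Without the arrays with a Y-linked signal it had 0.35 and kept its nominal call. Slc25a5, which exchanges ADP for ATP across the inner membrane, was the next by p, with 0.18 (SE 0.084, exact permutation p = 0.0397). Of the 13 transcription factors and coactivators of nuclear respiratory genes, 10 were above 0 and 0 reached a nominal p under 0.05. Among them Tfam, which packages and transcribes mitochondrial DNA, had 0.15 (SE 0.11), Gabpa 0.11 (SE 0.071) and Nrf1 0.083 (SE 0.072). Ppargc1a, which encodes the coactivator PGC1α, had −0.11 (SE 0.13) at levels below the array median, and Esrra had 0.0044 (SE 0.12).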

How the data were processed

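The authors hybridized amplified BM RNA to Affymetrix arrays and processed the signals by RMA in Partek Genomics Suite, and the deposited table holds log2 intensity values of 35556 probe sets on 10 arrays. The study's methods name a miRNA array, while the table holds whole-transcript probe sets. No genome build is given in the sources used here. Probe sets were named through the platform's annotation: 21789 list 1 gene, 1621 several and 12146 none. All 60 members matched RefSeq by gene identifier, under the array's older symbols.

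The values were used as deposited. VD(−) was compared with VD(+) by limma 3.58.1 (R 4.3.3; lmFit, eBayes, two-sided) over all probe sets, with Benjamini-Hochberg adjustment over all 35556 of them, and by exact two-sided permutation tests for single genes. A log2 fold change is VD(−) less VD(+), and a percent is its linear form. Levels are not compared between probe sets. The number of arrays, 5 per group, limits the precision. Members and lists were chosen with earlier results of these data known. Named were members at a nominal p under 0.05, the smallest p and the extreme fold changes of each complex, Cyc1, Cycs, paralog families, the study's network genes, and pathway genes by p. Others are named to complete a class and were chosen after their values were seen. Alternatives were the methods' t-test and fold thresholds, other normalizations, a filter on dim probe sets, averaging a gene's probe sets, other estimates of the spread, covariates, subsets of arrays and leaving out each array.

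No protein sequences were used here. The fits were tested on simulated data.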

Additional observations from a re-analysis of the deposited data

Results flagged for a closer look

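Among 62 sets of 5 values, those of the 31 named genes in each group, 5 held an array whose gap to its nearest neighbour was large for the range of its group by Dixon's test, where chance gives about 1 in 20. In VD(+) replicate 1, Atp5md was at 9.44, against 10.01 for the next array, and Uqcr11 at 8.76, against 9.05. In VD(+) replicate 3, Cox8b was at 5.95, against 3.75. In VD(+) pool 2, Cox7a1 was at 4.65, against 5.12. In VD(−) pool 2, Sdhaf2 was at 7.57, against 7.40.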

How the results depend on the processing

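No member passed an adjusted p under 0.05 in the 23 alternatives that give one, which leaves out the fold thresholds. The number higher in VD(−) at a nominal p under 0.05 was 10 with the methods' t-test, 3 with the fold thresholds of the methods, 10 with a trended and robust spread, 1 with the single samples alone, 2 with the pools alone, 1 with a covariate formed by subtracting Xist from the Y-linked signal, 1 without the arrays with a Y-linked signal, and 3 to 10 when 1 array was left out. The share of all genes called higher was 4.27%, 2.35%, 3.99%, 1.84%, 1.9%, 4.27% and 3.08% in these, and 3.14% to 4.35% with 1 array left out. The number lower was 0 with the pools alone, with that covariate and without those arrays, and 0 to 1 when 1 array was left out. The share of all genes called lower was 1.3%, 3.33% and 2.64% in these, in the same order, and 2.42% to 3.17% with 1 array left out. Members with no overlap, higher in VD(−), numbered 1 after quantile normalization, where 1.04% of all genes did so, and 2 to 12 when 1 array was left out, where 1.36% to 2.12% did. The cause of these differences was not tested, though the subsets hold fewer arrays. The medians of all members and of complexes II to V stayed above 0 in every fit. The lowest was 0.0025, for complex IV without the arrays with a Y-linked signal. All moved by less than the spread between arrays, an SD of 0.073 to 0.085 by list. With all arrays the medians were themselves only 0.059 to 0.086. A fall to 0 would thus exceed that spread in complex II alone, so this measure cannot show that they are stable. Of the 31 named genes 8 changed sign in some fit, and none of these was at a nominal p with all arrays. With the replicate number as a replicate block, 5 members were higher and 0 lower at a nominal p, where 3.51% and 2.67% of all genes were. Same-numbered arrays did not deviate together, with correlations from −0.052 to 0.061, and only 2 of 10 arrays correlated best with their own number.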
